A study of Caenorhabditis elegans with 2 samples.

Results

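The peaks described here are the REF-2 binding sites that lay beside a noncoding RNA gene. A peak was counted when its summit, the position of highest signal, lay within 200 bp of a gene annotated as ncRNA or lincRNA (long intergenic noncoding RNA) and not within 200 bp of a tRNA, snoRNA or snRNA gene. Of 2129 peaks in the optimal list, the list that the authors thresholded on reproducibility between replicates (IDR), 343 met the rule (16.1%, 95% interval 14.6 to 17.7). The remaining 1786 are called the other peaks, and 139 of them were beside an ncRNA or lincRNA gene but were left out because a tRNA, snoRNA or snRNA gene was also within 200 bp. Within the optimal list positions alone chose the peaks, and the rule used neither their signal nor their sequence. Their position relative to protein-coding genes is tied to where the noncoding genes are annotated, so it is set beside that of the sequence the rule covers.

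The binding was measured by chromatin immunoprecipitation and sequencing (ChIP-seq) of whole Caenorhabditis elegans hermaphrodites collected late in embryogenesis, 3 hours after the eggs were bleached for synchrony. All animals were of strain OP520, with the allele unc-119(tm4063) and the integrated transgene wgIs520, which expresses REF-2 with a C-terminal GFP-FLAG tag. The chromatin was sonicated, and the labels describe an anti-GFP antibody in 1 field and name ref-2 in the antibody field. There was 1 group of 2 biological replicates with separate sample records, and the labels do not say whether these were separate cultures. Control samples were not analysed here, read depth is unknown, and in whole embryos strong binding in few cells cannot be told apart from weak binding in many.

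REF-2 belongs to the Zic family of zinc finger DNA-binding proteins, which act in neural and epidermal development and bind GC-rich sites with a core like CAGCAGG. In the worm annotation the class ncRNA collects mostly short genes of unknown function, many of which lie antisense to or between protein-coding genes. It also holds the RNA subunits of ribonucleoprotein enzymes and particles, such as RNase P, which trims the 5' end of tRNA precursors, RNase MRP, which acts in ribosomal RNA maturation, and the signal recognition particle (SRP), which directs secreted proteins to the endoplasmic reticulum. The lincRNAs are longer transcripts that lie between protein-coding genes.

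The first set of sequences shows summits at the 5' end of the gene, at 5 peaks picked for that position after their values were seen, a ribonucleoprotein RNA gene on each of chromosomes II and III and 3 genes with only a sequence name. Each run is 121 bases of the RefSeq sequence of WBcel235 (ce11), read 5' to 3' on the gene's own strand and centred on the summit. Capitals mark the annotated gene. The windows, with strand, are mrpr-1 chrII:7200194-7200314 (plus), srpr-2.2 chrIII:5031611-5031731 (minus), F52D10.7 chrX:11605934-11606054 (minus), C14F11.14 chrX:6207780-6207900 (plus) and F26F4.14 chrIII:4899889-4900009 (minus). Each of these 5 summits lay between 5 bp before and 37 bp after the 5' end of the gene, which was not so for all peaks: 50.1% of the 343 summits were within 100 bp of a 5' end.
mrpr-1: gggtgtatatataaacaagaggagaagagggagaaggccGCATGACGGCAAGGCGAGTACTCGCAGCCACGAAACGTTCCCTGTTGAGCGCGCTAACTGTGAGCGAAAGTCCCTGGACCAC
srpr-2.2: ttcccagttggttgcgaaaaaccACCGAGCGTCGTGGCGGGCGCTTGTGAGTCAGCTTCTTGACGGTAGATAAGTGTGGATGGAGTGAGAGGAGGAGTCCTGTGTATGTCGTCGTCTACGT
F52D10.7: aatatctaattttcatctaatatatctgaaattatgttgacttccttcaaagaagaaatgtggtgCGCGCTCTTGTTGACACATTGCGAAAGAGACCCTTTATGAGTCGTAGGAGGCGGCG
C14F11.14: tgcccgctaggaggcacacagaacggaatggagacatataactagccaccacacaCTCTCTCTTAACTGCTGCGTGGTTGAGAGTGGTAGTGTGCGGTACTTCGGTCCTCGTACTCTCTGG
F26F4.14: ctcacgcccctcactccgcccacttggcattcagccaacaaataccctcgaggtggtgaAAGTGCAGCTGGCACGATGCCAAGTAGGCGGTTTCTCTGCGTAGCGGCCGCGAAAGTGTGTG

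The second set shows the Zic-type core, CAGCAGG or CAGCGGG on either strand, at the 6 strongest peaks with the core within 100 bp of the summit. Each run is 61 bases centred on the core, on the strand that reads as the core, with the core in capitals, at linc-128 chrV:1151384-1151444 (plus), F33A8.11 chrII:11043003-11043063 (minus), F40F9.15 chrV:9731162-9731222 (plus), K08A8.22 chrX:7456142-7456202 (minus), F09E5.18 chrII:5358402-5358462 (plus) and C14F5.10 chrX:7951656-7951716 (minus).
linc-128: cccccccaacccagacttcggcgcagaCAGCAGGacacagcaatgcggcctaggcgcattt
F33A8.11: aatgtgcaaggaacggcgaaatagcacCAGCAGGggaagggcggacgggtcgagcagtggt
F40F9.15: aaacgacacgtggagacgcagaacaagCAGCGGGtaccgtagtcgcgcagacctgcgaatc
K08A8.22: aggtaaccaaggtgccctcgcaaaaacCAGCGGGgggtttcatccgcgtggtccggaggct
F09E5.18: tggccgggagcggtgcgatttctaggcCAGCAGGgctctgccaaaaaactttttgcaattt
C14F5.10: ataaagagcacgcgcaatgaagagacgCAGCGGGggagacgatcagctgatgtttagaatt

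The third set shows the run GAGAGAGA on either strand, which was in 15.7% of the windows and in 2.77% of windows centred 1000 bp to each side, at 4 of the strongest peaks that held it. Each run is 61 bases on the strand that reads as GAGA, with every full copy in capitals, at F26D10.23 chrIV:17278557-17278617 (minus), F09C8.4 chrX:16147866-16147926 (plus), F54D5.22 chrII:11545505-11545565 (minus) and F22E12.10 chrV:10466806-10466866 (minus). F09C8.4 holds copies that overlap, and the other 3 hold 1 copy in the stretch shown.
F26D10.23: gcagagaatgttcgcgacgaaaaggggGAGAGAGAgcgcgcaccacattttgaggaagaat
F09C8.4: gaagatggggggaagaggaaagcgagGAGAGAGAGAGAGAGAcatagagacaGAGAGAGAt
F54D5.22: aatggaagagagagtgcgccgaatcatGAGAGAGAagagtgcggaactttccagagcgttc
F22E12.10: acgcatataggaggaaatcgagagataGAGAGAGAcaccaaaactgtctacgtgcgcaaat

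The signal of each peak is the authors' own value, and how it was scaled between lists is not given in the sources used here. Among the 343 peaks the pooled signal ran from 105.5 to 878 with a median of 148.9, and among the other peaks it ran from 105.5 to 2351 with a median of 145.2. In replicate 1 the matched signal had a median of 69.9 beside ncRNA and lincRNA genes and 68.8 at the other peaks. In replicate 2 the medians were 82.3 and 77.6. By rank the set spanned nearly the whole list, from 4 to 2128, while its highest signal was well below that of the other peaks. The 95% interval of a share is the exact Clopper-Pearson one and covers only counting error, and no test was applied between these peaks and the other peaks because peaks of 1 sample are not replicates.

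The strongest peak of the set stood at F52D10.7, a 137-nt ncRNA gene on X. Its signal was 379 in replicate 1 and 497 in replicate 2, and its pooled signal of 878 had rank 4. The summit at X 11605994 lay 5 bp upstream of the 5' end of F52D10.7 and 575 bp upstream of ftt-2, which encodes a 14-3-3 protein. A neighbouring summit at X 11606200, inside the 149-nt gene F52D10.9, had 258 in replicate 1 and 318 in replicate 2 (pooled 515). Both summits fell in the ftt-2 promoter window, defined as 1000 bp upstream to 200 bp downstream of a protein-coding gene's 5' end, and their peak intervals overlap, so they are not separate observations.

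Next in order was C30E1.9, at 14770 nt far longer than the median ncRNA gene of 140 nt. Its summit at X 16929791 lay 123 bp upstream of the gene and in no protein-coding gene or promoter window, with 249 in replicate 1 and 363 in replicate 2 (pooled 617). F36H1.17, on IV, had 228 in replicate 1 and 300.2 in replicate 2 (pooled 533), and its summit was also within 200 bp of the microRNA gene cel-mir-51. Of the 343 windows it was the only one with a B box, the internal promoter element of tRNA genes. The fifth was linc-128 on V, the strongest peak beside a lincRNA gene, with 216 in replicate 1 and 265 in replicate 2 (pooled 481). Its summit lay 590 bp inside the 2302-nt gene.

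C14F11.14 followed on X, with its summit 5 bp inside the gene and 153 bp upstream of T13C5.6, and it had 227 in replicate 1 and 242 in replicate 2 (pooled 468). F26D10.23 on IV had 187 in replicate 1 and 248 in replicate 2 (pooled 434). That summit was 373 bp upstream of hsp-1, which encodes a constitutive Hsp70 chaperone, and its window held a GAGA run. F13D11.7 on X had 199.8 in replicate 1 and 214 in replicate 2 (pooled 405), and 4 ncRNA genes on both strands lay within 200 bp of it. WBGene00195021 on IV, annotated as only 19 nt long, had 185 in replicate 1 and 195 in replicate 2 (pooled 383), and 50.6% of the 36-base words in its window occurred elsewhere in the genome, so its reads may not map uniquely.

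The last 3 of the 12 strongest were F56F3.10, rpr-1 and F26F4.14. F56F3.10 had 158 in replicate 1 and 198 in replicate 2 (pooled 357), with a summit 238 bp upstream of rps-1, a ribosomal protein gene of the small subunit, and 530 bp upstream of ifet-1, which encodes a translational repressor. F26F4.14 had 155 in replicate 1 and 200.5 in replicate 2 (pooled 349.7), and its summit was in the promoter windows of tag-340 and nhl-2. All 12 ranked between 7 and 134 in replicate 1 and between 3 and 81 in replicate 2. Of the 12, 6 were in promoter windows, 5 were intergenic and 1 was in an intron, and 5 were on X.

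The ribonucleoprotein RNA genes were among the peaks with a known product. The summit at rpr-1, the RNase P RNA gene, lay 19 bp inside the gene, in an intron of ints-8 on the opposite strand, and the peak measured 156 in replicate 1 and 197 in replicate 2 (pooled 356). The summit at mrpr-1, the RNase MRP RNA gene, lay 21 bp inside the gene and in the promoter windows of pcrg-1 and E04F6.6, with 95.5 in replicate 1 and 112 in replicate 2 (pooled 209). At srpr-2.2, an SRP RNA gene in an intron of klp-6 on the opposite strand, the summit lay 37 bp inside the gene, with 124 in replicate 1 and 153 in replicate 2 (pooled 283). These 3 summits lay within the first 37 bp of the annotated gene.

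The other SRP RNA genes gave weaker peaks. At srpr-2.1 the summit lay 276 bp into the 299-nt gene, with 91.5 in replicate 1 and 135 in replicate 2 (pooled 231), and replicate 1 had a stronger summit of 108 elsewhere within 200 bp of the gene. The peak of srpr-1.2 had 79.0 in replicate 1 and 156 in the pooled list, and no summit of the replicate 2 list lay within 200 bp. That of srpr-1.1, with its summit 102 bp past the 3' end of the gene and in a coding exon of pals-26, had 62.5 in replicate 1 and 79.7 in replicate 2 (pooled 141). At srpr-3 the signal was 39.9 in replicate 1 and 37.2 in replicate 2, and the pooled 80.2 was below the optimal list, so 4 of the 5 SRP RNA genes had a peak of the set. Some of these windows held repeated sequence, so signal at 1 gene may belong to another place. Of the 36-base words, 89.2% in the srpr-1.2 window, 47.6% in the srpr-2.2 window and 25.3% in the srpr-2.1 window occurred elsewhere in the genome. Whether they occurred in the other SRP RNA genes was not computed.

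Across all 14 genes of the class with a gene name other than a linc number, a list drawn up after the values were seen, 7 had a peak of the set, and over the whole class 463 of 7958 genes had one (5.82%). Besides the RNAs above this included tts-2, whose summit 196 bp from the gene had 71.8 in replicate 1 and 43.2 in replicate 2 (pooled 119). That summit was nearer to the coding gene arv-1, 106 bp upstream of its 5' end, and the replicate 2 peak had rank 5591. A further 4 of the 14 genes had a peak only in the relaxed pooled list of 30000, among them lep-5, a lincRNA that acts in developmental timing, with 22.2 in replicate 1, no peak in replicate 2 and a pooled signal of 40.1. The pooled list had no summit within 200 bp of lfor-2, rncs-1 or yrn-1. Of the ribonucleoprotein RNAs in this list, those of RNase P, RNase MRP and 4 of the 5 SRP genes thus had a peak, and the Y RNA gene yrn-1 had none.

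**Figure D1:**
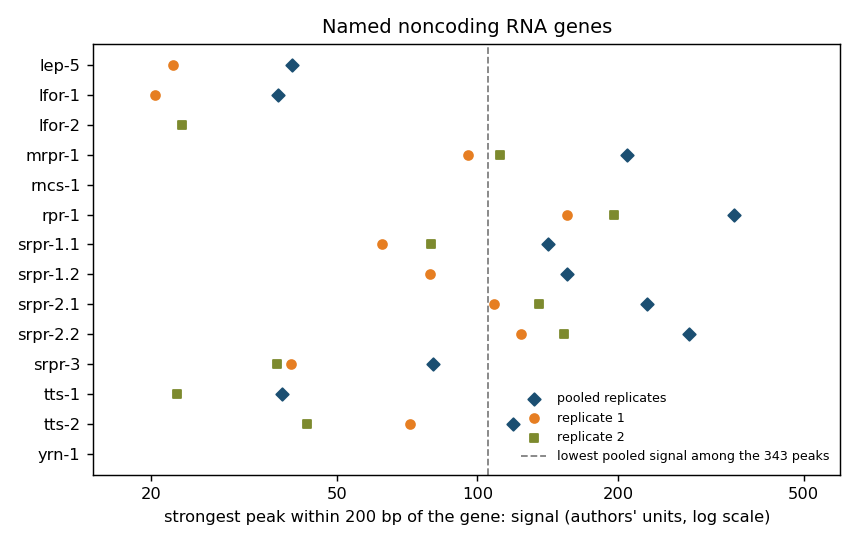
Signal of the strongest peak within 200 bp of each of 14 named noncoding genes (horizontal, log scale, authors' units) in the pooled list, replicate 1 and replicate 2; a gene without a symbol had no peak in that list. The genes right of the dashed line in the pooled list, led by rpr-1 at 356, are the 7 with a peak of the set.

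Beside lincRNA genes stood 11 of the 343 peaks, with a median pooled signal of 210.8. They touched 9 of 194 lincRNA genes (4.64%, 2.14 to 8.62), and 454 of 7764 ncRNA genes had a peak (5.85%, 5.34 to 6.39). The interval for lincRNA genes spans the ncRNA share. After linc-128 came linc-91, with a summit 26 bp upstream of its 5' end (128 in replicate 1 and 154 in replicate 2, pooled 287) and another 1784 bp into the gene (111 in replicate 1 and 145 in replicate 2, pooled 255). Both linc-91 windows held a GAGA run. At linc-146 the stronger summit had 119 in replicate 1 and 122 in replicate 2 (pooled 242), and a second summit of the same gene was matched to the same replicate 2 peak.

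The linc-90 summit lay 2645 bp into the gene and 67 bp upstream of gei-4, with 109 in replicate 1 and 106 in replicate 2 (pooled 211). The linc-117 summit lay 271 bp upstream of mys-1, which encodes a histone acetyltransferase of the MYST family, with 112 in replicate 1 and 73.2 in replicate 2 (pooled 196). Of the 11 lincRNA peaks 8 were intergenic and 3 were in promoter windows, and 10 were among the strongest 2129 peaks of both replicates. The other promoter summit was beside both linc-78 and the ncRNA gene AH9.7. It lay 374 bp upstream of rpl-11.2, with 86.5 in replicate 1 and 122 in replicate 2 (pooled 217). All 3 summits were thus placed for a protein-coding promoter as well as for a noncoding gene.

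The rule placed every summit within 200 bp of an ncRNA or lincRNA gene. Within the sequence it covers, gene bodies held more of the summits than their share. Of the 343, 215 (62.7%, 57.3 to 67.8) were inside the nearest gene, 78 (22.7%) were upstream of it and 50 (14.6%) downstream. The gene bodies made up 35.4% of the sequence that the rule covers, the upstream sides 32.4% and the downstream sides 32.2%. The median summit lay 75 bp downstream of the 5' end, and 172 (50.1%) lay within 100 bp of it on either side. The share of the covered sequence that lies within 100 bp of a 5' end was not computed. Inside the gene the summits did not gather at 1 end: 112 of 215 (52.1%) were in the 5' part up to the midpoint. Since the genes with a peak had a median length of 149 nt, summits at the start and at the middle of a gene are not far apart compared with a peak of 440 bp.

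**Figure D2:**
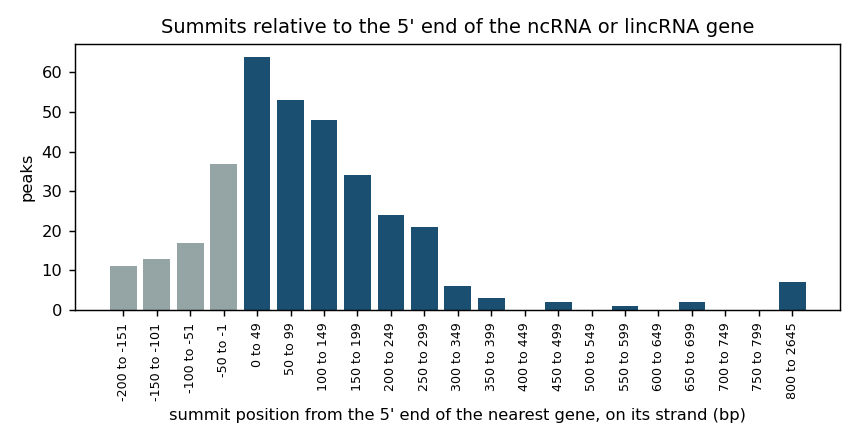
Number of peaks by the position of the summit from the 5' end of the nearest ncRNA or lincRNA gene, in bp along the gene's strand; grey bars are upstream of the 5' end and blue bars downstream, and the last bar pools 800 to 2645 bp. The highest bar, with 64 peaks, is 0 to 49 bp, and the counts fall off on both sides.

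The rule covers 3.58% of the nuclear sequence, against 16.1% of the optimal peaks, a ratio of 4.50. The comparison is with all nuclear sequence, not matched for promoter windows, introns or exons, and the part of that context in the ratio was not tested. The ratio was above 1 on every chromosome, with 3.46 on III at the low end and 6.37 on V at the high end. Down the pooled list the share of peaks beside ncRNA and lincRNA genes was 15.2% in ranks 1 to 500 (12.2 to 18.7), 19% in the next 500 (15.7 to 22.7) and 15.2% in the rest of the optimal list (13.2 to 17.5). It was 13.0% past the optimal list up to rank 5000 (11.8 to 14.3) and 5.43% (4.99 to 5.89) in the last 10000 of 30000, still above the share of sequence. The share also fell past rank 2129 in both replicate lists. Replicate 1 had 14.2% in the first 500 and 5.34% in the last 10000, and replicate 2 had 16.4% and 5.7%. Within the optimal list the 3 intervals overlap, and that of the next range overlaps the last of them, while the interval of the last 10000 peaks lies below all of these.

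**Figure D3:**
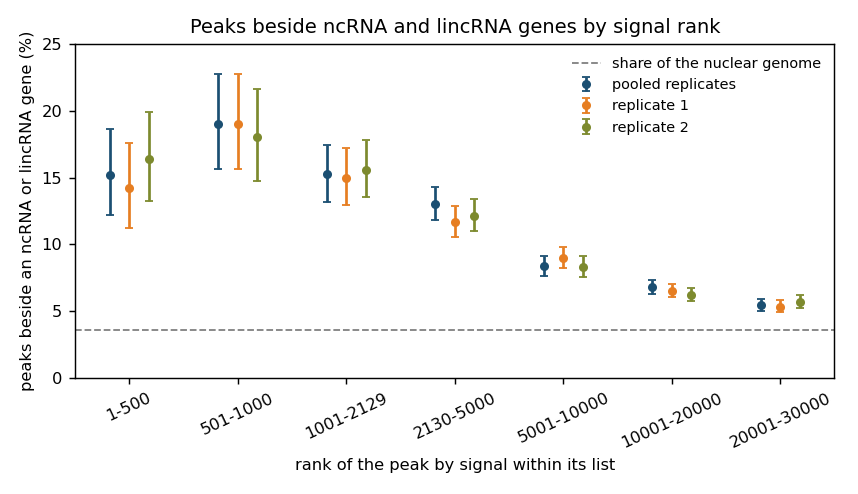
Percent of peaks beside an ncRNA or lincRNA gene (vertical) by rank of signal within each list (horizontal) for the pooled list, replicate 1 and replicate 2, with exact 95% intervals for counting error; the dashed line is the 3.58% of nuclear sequence that the rule covers. The pooled share is 15.2% in the first 500 and 5.43% in the last 10000, and in both replicates too the last 10000 have the lower share.

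Seen from the genes, 463 of 7958 (5.82%, 5.31 to 6.36) had a peak of the set. Any optimal summit lay within 200 bp of 614 (7.72%). Genes beside only peaks that the rule left out count here as without a peak of the set. By length, a peak was beside 3.27% of genes under 60 nt (21 of 643), 3.24% of genes from 60 nt to under 120 nt (64 of 1974), 5.62% of those from 120 nt to under 160 nt (177 of 3152), 8.61% of those from 160 nt to under 300 nt (143 of 1661) and 11.0% of those of 300 nt or more (58 of 528). A longer gene also offers more sequence to the rule. Genes with another ncRNA or lincRNA gene within 200 bp on the opposite strand had a peak in 224 of 2782 cases (8.05%, 7.07 to 9.13), and genes without such a partner in 239 of 5176 (4.62%, 4.06 to 5.22). A single summit counts for both genes of such a pair: 29.4% of the 343 summits had ncRNA or lincRNA genes of both strands within 200 bp. Median pooled signal was 144.6 at these summits and 149.9 at the rest of the set.

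In relation to protein-coding genes, 134 of the 343 summits (39.1%, 33.9 to 44.5) lay in a promoter window, against 838 of the other peaks (46.9%, 44.6 to 49.3). Intergenic summits, outside every promoter window and protein-coding gene, numbered 128 (37.3%, 32.2 to 42.7), against 426 of the other peaks (23.9%, 21.9 to 25.9). Introns held 76 (22.2%) and 422 of the other peaks (23.6%), and coding exons held 3 (0.875%) and 63 of the other peaks (3.53%). When peaks beside tRNA, snoRNA and snRNA genes were also left out of the other peaks, a comparison added after the data were seen that left 1536, the promoter share of these was 50.5% and the intergenic share 22.6%. Of the sequence the rule covers, 22.9% was in promoter windows, 39.2% intergenic, 29.1% in introns and 6.78% in coding exons. The intergenic share of the set was thus near that of the covered sequence, and the promoter share was above it. The lower promoter share and the higher intergenic share relative to the other peaks cannot be told apart from where the noncoding genes are annotated.

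The strand of the noncoding gene relative to the coding gene was close to that of the annotation. In promoter windows the ncRNA or lincRNA gene was on the strand opposite to the nearest coding gene in 82 of 134 cases (61.2%, 52.4 to 69.5), against 1153 of the 1866 genes of the class with a midpoint in such a window (61.8%). Of the same summits, 38 (28.4%) lay in windows of several coding genes. In introns the noncoding gene was antisense to its host in 54 of 76 cases (71.1%, 59.5 to 80.9), as rpr-1 is to ints-8, against 1800 of 2752 genes of the class with a midpoint in an intron (65.4%). The gene nearest to the summit was counted, and among genes equally near the one with the lowest start coordinate. Genes of the class on both strands lay within 200 bp of 46 of the 134 promoter summits and 15 of the 76 intron summits. Promoter summits had a median pooled signal of 165.8, intron summits 140.8 and intergenic summits 144.4. For the peaks in promoter windows, binding at the noncoding gene and binding at the coding promoter cannot be told apart.

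The X chromosome held 112 of the 343 peaks (32.7%, 27.7 to 37.9), against 376 of the other peaks (21.1%, 19.2 to 23.0). It also holds 32.1% of the ncRNA and lincRNA genes (2558 of 7958). Per gene, X was not set apart: 6.06% of its ncRNA and lincRNA genes had a peak, within the 5.20% (V) to 6.27% (II) seen on all chromosomes. The median pooled signal was 143.9 on X and 163.3 on III, the highest of the chromosomes.

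The replicates ranked these peaks much as they ranked the rest. Of the 343, 234 (68.2%, 63.0 to 73.1) matched one of the 2129 strongest peaks in both replicates, against 1210 of the other peaks (67.7%, 65.5 to 69.9), and 7 (2.04%) matched those of neither, against 53. Matching used summits within 200 bp, and 340 peaks had a match in both relaxed lists. The log2 ratio of replicate 1 to replicate 2 was centred on its median over all matched optimal peaks, -0.18. After centring, 11 of 340 peaks (3.24%, 1.63 to 5.72) differed by more than 2-fold, and the background over all 2112 matched optimal peaks was 3.69%. Of the 11, 4 were higher in replicate 1 and 7 higher in replicate 2. A replicate peak could be matched by several optimal peaks, and 6 of the 340 shared one with a neighbour, K04A8.17 and Y15E3A.13 among them. Without every optimal peak that shared one, an alternative added after the data were seen, 9 of 334 were past 2-fold (2.69%), of which 2 had the higher value in replicate 1, against 3.45% of 2088 optimal peaks. With 1 library on each side no test applies, and the share was close to the background.

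**Figure D4:**
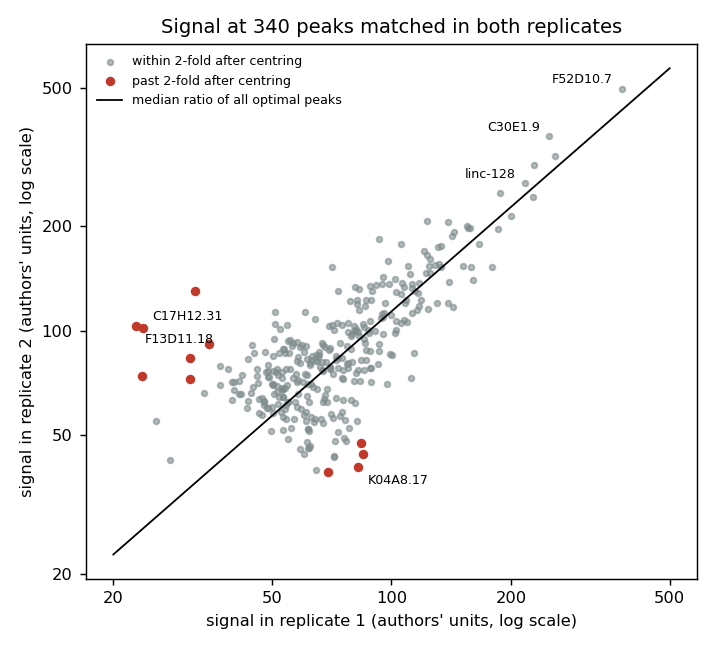
Signal in replicate 1 (horizontal, log scale) and replicate 2 (vertical, log scale), in the authors' units, at the 340 peaks matched in both; each point is 1 peak, and the line is the median ratio of all optimal peaks. F52D10.7 stands at the top right with 379 and 497, and 11 peaks in red differ by more than 2-fold after centring, 4 of them higher in replicate 1 and 7 higher in replicate 2.

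The peaks furthest apart were higher in replicate 2. F13D11.18 on X had 22.8 (rank 20228) in replicate 1 and 103 (rank 583) in replicate 2, a centred log2 ratio of -1.99. C17H12.31 on IV had 23.8 in replicate 1 and 102 in replicate 2 (-1.92), and F57G12.12 on X had 32.0 in replicate 1 and 130 in replicate 2 (-1.84). In the other direction K04A8.17, in an intron of dre-1, had 82.5 in replicate 1 and 40.4 in replicate 2 (1.21), but that replicate 1 peak was also the match of the stronger peak K04A8.16 (0.29). W06H8.14 had 84.9 in replicate 1 and 44.0 in replicate 2 (1.13), and F46F2.12, in an intron of kin-20, had 69.2 in replicate 1 and 39.3 in replicate 2 (1.00). None of these was among the 12 strongest. Across the 340 peaks the centred ratio had a median of -0.11, against 0.02 at the other peaks, and it was -0.0044 in promoter windows, -0.15 in introns and -0.17 in intergenic sequence. The middle range of single peaks in the set ran from -0.33 to 0.18, and with 1 library on each side no error can be given for these medians.

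The Zic-type core was not common in these windows. Of the 343 windows, each reaching 100 bp to either side of the summit, 19 held it on either strand (5.54%, 3.37 to 8.52), against 122 of the other peaks (6.83%, 5.70 to 8.10). Of the 1536 other peaks not beside tRNA, snoRNA or snRNA genes, 6.38% held it. Windows of the same length centred 1000 bp to each side held it in 2.19% for the 343 and 1.65% for the other peaks. In 8 of the 19 the core lay within 50 bp of the summit, and the distance ran from 1 bp at C34H3.6 to 94 bp at R13H4.11. The median pooled signal was 186.8 at the 19 and 147.6 at the 324 without the core, and among the 12 strongest peaks only linc-128 held it. Of the 19, 9 were in promoter windows, 7 were intergenic and 3 were in introns.

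GAGAGAGA was found in 54 windows (15.7%, 12.1 to 20.0), against 232 of the other peaks (13.0%, 11.5 to 14.6). Of the 1536 other peaks not beside tRNA, snoRNA or snRNA genes, 14.2% held it (12.5 to 16.0). In the flanking windows the shares were 2.77% and 2.18%. By context the run was present in 20.3% of intergenic, 15.8% of intron and 11.9% of promoter windows of the set. Median pooled signal was 159.4 with the run and 143.5 without it. Of the other motifs searched, GGGCGGG was in 5.25% of windows (flanks 1.02%), against 4.54% of the other peaks. CACGTG was in 3.50% (flanks 2.33%), against 4.76% of the other peaks. The B box was in 0.292% of the set and 5.99% of the other peaks, and in 0.326% of the 1536 other peaks that were not beside tRNA, snoRNA or snRNA genes.

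The windows were GC-rich at the summit. Median GC content was 49.8% in the set and 46.8% at the other peaks, against 36.8% and 36.6% in the flanking windows. In narrower windows, 50 bp to either side, the mean at the summit was 51.8% in the set and 49.1% at the other peaks. At 100 bp upstream on the plus strand it was 47.9% and 42.1%, and at 200 bp upstream 41.8% and 37.8%, so the GC-rich stretch was wider in the set. Runs of 5 T were in 53.9% of the set, 69.5% of the other peaks and 81.9% of the windows flanking the set.

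**Figure D5:**
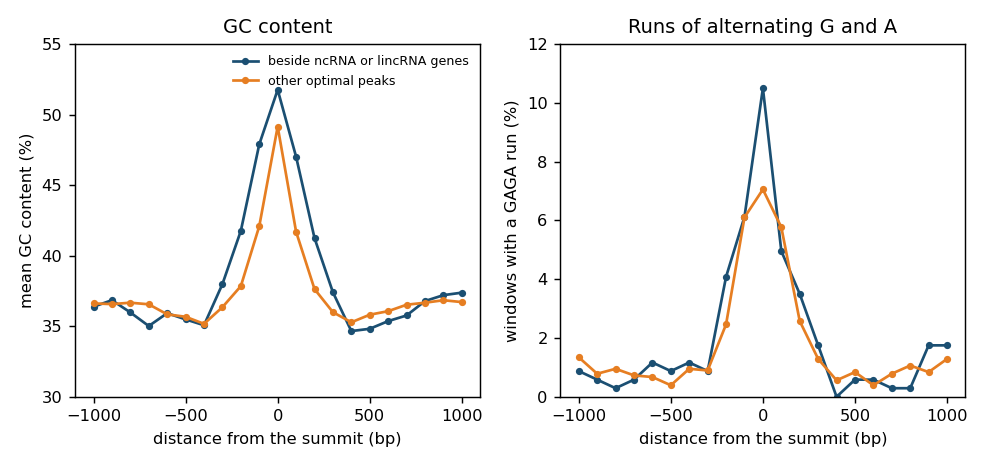
Mean GC content (left, percent) and percent of windows with a GAGA run (right) in windows reaching 50 bp to either side of each point, by distance from the summit in bp, for peaks beside ncRNA or lincRNA genes (blue) and other optimal peaks (orange). At the summit GC is 51.8% in the set and 49.1% at the other peaks, and a GAGA run is in 10.5% and 7.05%.

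The same features were set against the genes without a peak. Windows of the same length were centred on the gene midpoint. Genes were grouped by summits within 200 bp, so many of these windows share sequence with the summit windows. The 463 genes with a peak of the set had a median GC content of 49.3%. The 2372 genes with a summit only in the relaxed pooled list had 45.3%, and the 4972 genes with no pooled summit had 39.8%. The GAGA run was in 12.5% (9.65 to 15.9), 7.55% and 4.51% of these windows in the same order, and the Zic-type core in 5.40% (3.52 to 7.87), 3.63% (2.91 to 4.46) and 2.45%. GC content and the GAGA run were highest at genes with a peak of the set, and for the core the first 2 intervals overlap. Genes whose only optimal summits were left out by the rule are in none of these groups. Base composition also bears on how readily fragments are sequenced, and its part in the result was not tested.

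At the edge of the rule, the furthest peaks inside were those of D2092.13 at 200 bp, tts-2 at 196 bp, and W01H2.8 and linc-54 at 190 bp. The nearest outside were C04D8.4 at 209 bp and F13G11.145 at 210 bp.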

How the data were processed

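ChIP-seq peak lists from 1 group of 2 replicates were read as deposited by the authors, on ce11 (4 lists, 3 of them relaxed lists of 30000 peaks). The signal per peak and the −log10 q per peak are deposited values, per the file headers and the labels' file descriptions; they were used only to rank and describe peaks and to compare the replicates at matched peaks. The caller, the aligner, their versions and the scaling between lists are not given in the sources used here, and depth is unknown. The lists on the older build were not used here. The optimal list holds the 2129 strongest peaks of the pooled list by signal.

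Gene models came from Ensembl release 115 and sequence from RefSeq, both WBcel235. Summit to gene distance was at most 200 bp, summits matched within 200 bp, and motifs were counted on both strands within 100 bp of the summit. Python 3.11.15, pandas 2.3.3, numpy 2.4.6 and scipy 1.17.1 were used, and the distance, matching and motif steps were checked on simulated peaks with known answers. Named were the 12 strongest peaks, up to 6 with a lincRNA gene nearest, the peak beside linc-78 and up to 10 beside genes with a gene name. Also named were the 3 furthest apart between replicates in each direction and those at the edge of the distance rule. The members and lists were chosen with earlier results of these data known. Alternatives covered leaving out each replicate, summit distances, promoter windows, the strongest 1000 peaks and other sequence windows.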

Additional observations from a re-analysis of the deposited data

How the results depend on the processing

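Counts were called moved past 1.5-fold, shares outside their counting interval and medians beyond 1 SD between the replicates' lists. By this, 14 counts, 33 shares and 5 medians held, and 2 counts, 10 shares and 7 medians moved. The wide margin for counts matters for the rule: without the exclusion near tRNA, snoRNA and snRNA genes 482 peaks met it (22.6% of the list), with a summit within 500 bp 409 (19.2%) and within 100 bp 300 (14.1%). Restricted to the strongest 1000 optimal peaks, 171 peaks met the rule, with 47.4% in promoter windows, a median signal of 197.5 and 94.7% among the strongest of both replicates. Promoter windows of 500 bp held 27.1% of the 343 peaks and windows of 2000 bp held 52.8%. With a summit within 100 bp of the gene 71.7% of summits were inside it, and with 500 bp 52.6%. Leaving out peaks that shared a replicate peak, 2.69% differed by more than 2-fold. In windows of 50 bp to either side of the summit the Zic-type core was in 2.33%. Windows of that size centred 100 bp to either side also had 2.33%. Those centred 1000 bp upstream and downstream on the plus strand had 0.583% and 2.04%. Without 1 replicate, with as many of the strongest peaks of the other in place of the optimal list, the median signal ranged from 71.8 to 81.7, each on its own list's scale, and 335 or 348 peaks met the rule. Without a replicate the comparisons between replicates could not be computed. No paired analysis was possible because the samples form 1 group. The median signal without the 2 peaks with mostly repeated sequence was 148.5. With 1 group, no sample of another condition and unknown depth, peaks below the optimal list cannot be called unbound.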

Other observations

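Among all 6-letter words, picked after their values were seen and counted once per window of 100 bp to either side of the summit, on either strand, GAGAGA was in 51.9% of the 343 windows, 41.0% of the other peaks and 15.6% of the flanking windows. CACACA was in 36.7%, 25.5% of the other peaks and 11.5% of the flanks, and GCGCGC in 20.1%, 12.4% and 1.90%. AAAAAA was in 20.7% of the 343 windows, 39.4% of the other peaks and 57.6% of the flanks. ACGCAG was in 23.9% of the 343 windows, 23.5% of the other peaks and 3.94% of the flanks.

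The windows of the 343 peaks were mostly unique sequence. At least 1 repeated 36-base word was in 15 windows (4.37%), against 290 of the other peaks (16.2%). The other peaks include 250 beside a tRNA, snoRNA or snRNA gene, which the rule keeps out of the set. The share of the other peaks without them was not computed. Another peak of the set lay within 1000 bp of 38 of the 343.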
